A study of Homo sapiens with 6 samples.

Results

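The 9 genes described here encode tropomyosins and other proteins that bind actin filaments: TPM1, TPM2, TPM3, TPM4, FLNA, ACTN1, ACTN4, CNN2 and MYL9. They were taken by symbol from the table of reads per gene, in which all 9 were found among 29476 listed genes, and all 9 passed the filter on low counts that left 15615 genes for testing. The group was selected on the difference between siDDX17 and siCtrl in these same libraries. That difference is therefore given for the 9 genes as a description, without a p-value, and no test supports it. RNA was measured in A549, an established line of human lung adenocarcinoma cells, by sequencing polyadenylated RNA from 3 libraries of cells transfected with a nontargeting siRNA (siCtrl) and 3 libraries of cells transfected with 1 siRNA against DDX17, a DEAD-box RNA helicase (siDDX17). The libraries were described as biological replicates, both groups went through the same lipid transfection, and a single siRNA sequence stands for the knockdown. The labels name the genotype of the siCtrl samples as a control plasmid, whereas their titles and the methods give the control siRNA. A harvest at 48 h was stated for the quantitative PCR and not for the sequenced RNA.

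Actin filaments are polymers of actin that give a cell its shape, its cortex and its contractile bundles. Tropomyosins are coiled-coil dimers that lie end to end along the filament and control which other proteins, myosin and cofilin among them, can reach it. Each tropomyosin gene yields several isoforms through alternative promoters and exons, and the gene counts used here do not separate them. Filamins and alpha-actinins tie filaments into networks and bundles, calponins bind along filaments, and the regulatory light chain of myosin II switches the motor on when it is phosphorylated. Many genes of this system carry a CArG box, the DNA element bound by serum response factor (SRF), whose coactivators MRTFA and MRTFB are held by free actin monomers.

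The total counts ran from 30658136 to 39182371 per library. DDX17, the target of the siRNA, was measured first, in CPM, the reads of a gene per 1000000 counts of the library after TMM scaling. In siCtrl there were 177, 184 and 206 CPM and in siDDX17 32.1, 30.8 and 30.4 CPM, a log2 fold change of -2.60 (SE 0.0685, n = 3 per group). The epithelial markers were present, with 4 of 5 at 1 CPM or more in every library and a summed level of 5534 to 6096 CPM in siCtrl and 4834 to 5266 CPM in siDDX17, nearly all of it KRT8 and KRT18. EPCAM, an epithelial surface gene, was the exception, at 0.738, 1.08 and 0.827 CPM in siCtrl and 2.28, 2.22 and 2.21 CPM in siDDX17. Smooth muscle markers, 6 of 7 listed in the files, summed to 10.8 to 14.3 CPM in siCtrl and 13.9 to 16.6 CPM in siDDX17, nearly all from SMTN. MYH11, CNN1, ACTG2 and MYOCD had at most 3 reads in any library. DES had 6, 3 and 4 reads in siCtrl and 2, 2 and 1 in siDDX17. Skeletal and cardiac muscle markers summed to at most 0.133 CPM, endothelial markers to at most 0.413 CPM, fibroblast markers to 5.20 to 7.79 CPM in siCtrl and 6.62 to 7.09 CPM in siDDX17, and immune markers to 0.909 to 1.30 CPM and 1.27 to 2.05 CPM. The part of these markers in the results was not tested.

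The first sequences shown are the promoter windows, because 4 of the 8 genes with a window held a CArG box. The windows are those of RefSeq (GRCh38.p14) and run from 250 bases before to 50 bases after an annotated start. MYL9 was not matched to a window. TPM4 had 3 annotated starts, and the window of the most upstream, at chr19:16067288-16067587 on the + strand, held the box in capitals 173 bases before the start. The windows of the other starts, at chr19:16076245-16076544 and chr19:16076766-16077065, held no box. Gene counts do not show which start the TPM4 reads came from. The upstream window is printed whole, 5′ to 3′ along the gene.
TPM4: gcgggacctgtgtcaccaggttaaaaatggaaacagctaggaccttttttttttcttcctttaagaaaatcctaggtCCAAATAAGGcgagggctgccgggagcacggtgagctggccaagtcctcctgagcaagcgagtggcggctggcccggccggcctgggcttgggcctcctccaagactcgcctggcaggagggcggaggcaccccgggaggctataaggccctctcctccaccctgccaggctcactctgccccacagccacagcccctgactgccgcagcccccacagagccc
The other 3 boxes are shown in windows of 40 bases, again with the box in capitals and along the strand of the gene. That of CNN2 (chr19:1026504-1026543, + strand) lay 89 bases before the start, that of FLNA (chrX:154374704-154374743, - strand) 94 bases before it, and that of ACTN1 (chr14:68977713-68977752, - strand) 171 bases before 1 of its 4 annotated starts. SVIL, which is no member of the group, is added because it had the largest fold change among the other actin filament genes. Its box (chr10:29634980-29635019, - strand) lay 33 bases before 1 of its 4 starts. Boxes of further actin filament genes outside the group are not printed.
CNN2: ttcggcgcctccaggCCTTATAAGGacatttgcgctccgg
FLNA: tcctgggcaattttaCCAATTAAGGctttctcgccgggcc
ACTN1: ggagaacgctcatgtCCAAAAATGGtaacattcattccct
SVIL: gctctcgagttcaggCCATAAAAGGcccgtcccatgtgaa

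The CArG box reads the same class of letters on both strands, so each match counts once. It was found in 454 of 35116 windows (1.29%). By gene, 4 of 8 of the group (50.0%) had at least 1 window with it, against 5 of 79 other actin filament genes that were tested (6.33%: ACTG1, MYLK, ROCK2, SRF and SVIL) and 156 of 10296 tested genes that matched a window by symbol (1.52%). A gene with more annotated starts has more windows that can hold a match, and these shares were not adjusted for the number of windows. The windows of TPM1, TPM2, TPM3 and ACTN4 held no match to these letters. The TPM1 window began at chr15:63048239, inside the gene, whose outer 5′ end is at 63042620. The TPM3 windows ended at chr1:154183468, inside the gene, whose outer 5′ end is at 154194648. Starts outside the windows were not searched. Of the 4 genes with a box, TPM4, CNN2 and FLNA were higher in siDDX17 and ACTN1 was not. TPM1 and TPM2, without a box in these windows, were also higher. Of the other actin filament genes with a box, MYLK, ROCK2 and SVIL rose, and ACTG1 and SRF did not pass the test. ACTA2, next after SVIL by fold change among the other actin filament genes, had no box in its windows. The 6 letters GGAATG, searched on both strands as the core of the TEAD motif, were in 14% of all windows. Among the 8 genes with a window, only the ACTN1 window shown above held them. There they lie on the opposite strand as CATTCC and do not overlap the box. These are matches of letters, with no measurement of binding.

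A second set of sequences was searched for because both groups received an siRNA. A short RNA can lower transcripts whose 3′ UTR holds a 7-base match to its bases 2 to 8, so the 3′ UTRs of the canonical transcripts (GENCODE release 44) were searched for the match to each strand of both siRNAs. TPM4 held TCGGAGA, which pairs with the sense strand of the control duplex, and TPM3 and ACTN1 held TATTGCT, which pairs with the antisense strand of the DDX17 duplex. The 3 sites are printed in 30 bases each, with the match in capitals, along the strand of the gene. They lie at chr19:16101482-16101511 (+ strand), chr1:154167291-154167320 (- strand) and chr14:68874150-68874179 (- strand) of GRCh38.
TPM4: aatattttgtaTCGGAGAagctttgagcac
TPM3: acccaatacatTATTGCTaagattgactaa
ACTN1: gacaactttgaTATTGCTtggcacagatgg

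TCGGAGA occurred in 277 of 12987 3′ UTRs (2.13%). The median log2 fold change of the genes with it was 0.23, and that of the genes without it was -0.01. TATTGCT was more common, in 1882 of the 3′ UTRs (14.5%), with medians of -0.03 with it and 0.00 without it. The other matches, TGTCACG (3.07% of 3′ UTRs, control duplex, antisense) and ATGGGTG (10.5%, DDX17 duplex, sense), were in none of the 9 genes. Libraries of untransfected cells were not analysed here, so a lower level of TPM4 in siCtrl and a higher level in siDDX17 cannot be told apart, and the part of the match in the difference was not tested.

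TPM4, a tropomyosin gene of non-muscle cells, differed most between the groups. The siCtrl libraries had 102, 104 and 102 CPM. The siDDX17 libraries had 423, 404 and 414 CPM. The groups were far apart, and the spread within each was small (102 ± 1.14 CPM and 413 ± 9.67 CPM, mean ± SD, n = 3 each). The log2 fold change was 2.01 (SE 0.0544), a 4.04-fold higher level, and it ranked 80th of 15615 tested genes by absolute log2 fold change. With each library left out in turn it stayed between 2.0 and 2.03. TPM4 lies at chr19:16067021-16103002 on the + strand (GRCh38). Of the stretches of 50 bases in its canonical transcript, 23.5% also occur in transcripts of its pseudogenes TPM4P2 and TPM4P3, so reads from those stretches could be lost or split, but TPM4P2 itself had only 4 to 10 reads per library.

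TPM2, best known as the beta-tropomyosin of muscle and also made in epithelial and fibroblast lines, was next. It had 277, 336 and 333 CPM in siCtrl and 624, 656 and 610.0 CPM in siDDX17. The lowest siDDX17 library was well above the highest siCtrl library, although siCtrl 1 lay 0.27 below the mean of the other siCtrl libraries on the log2 scale. The log2 fold change was 1.0 after rounding (SE 0.0735) and just short of the limit of 1 that was set beside the p-value. It ran from 0.90 without siCtrl 1 to 1.13 in limma on log2(FPKM + 0.1), and it was over the limit in 10 of 15 other settings. TPM2 lies at chr9:35681992-35690056 on the - strand, and its canonical transcript shares no stretch of 50 bases with another gene.

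TPM1, the alpha-tropomyosin gene, had 121, 120 and 122 CPM in siCtrl against 187, 188 and 189 CPM in siDDX17. These replicates were the tightest of the 9 genes in siCtrl relative to their mean, and the groups did not overlap. The log2 fold change was 0.63 (SE 0.0513), 1.55-fold. The gene lies at chr15:63042620-63071915 on the + strand, where TPM1-AS runs on the opposite strand with 2 to 6 reads per library.

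TPM3, the remaining tropomyosin gene and a main source of short tropomyosins in cells outside muscle, did not share this direction. Its libraries had 312, 342 and 350.2 CPM in siCtrl and 317, 297 and 291 CPM in siDDX17. The lowest siCtrl library, siCtrl 1, was below the highest siDDX17 library, so the groups overlapped. The log2 fold change was -0.15 (SE 0.0615), and it ran from -0.21 to -0.12 with single libraries left out. It was only -0.03 when no scaling factor was used and -0.02 when FPKM were fitted. TPM3 lies at chr1:154155308-154194648 on the - strand and has processed pseudogenes, of which TPM3P9 had 161 to 238 reads per library.

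**Figure D1:**
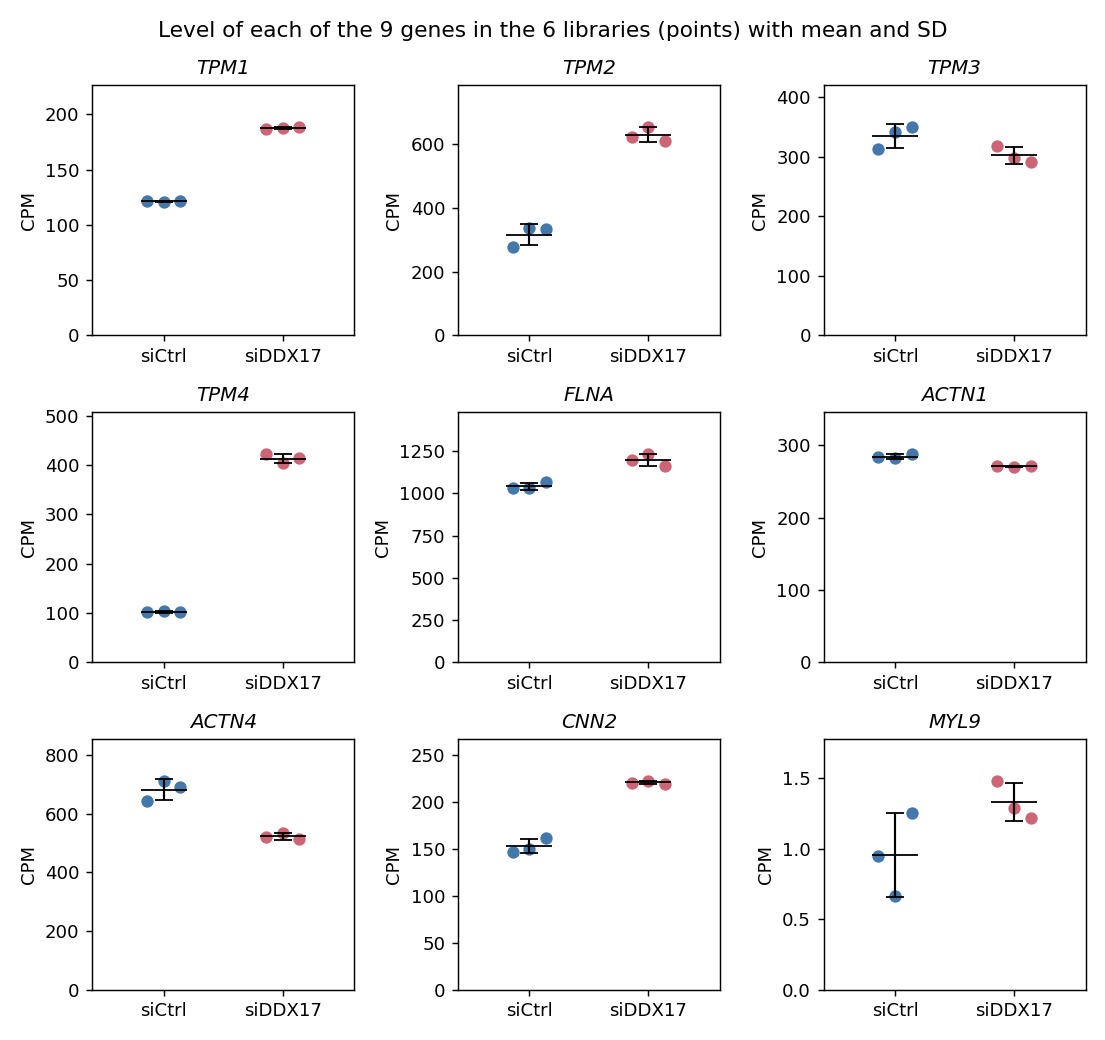
Level of each of the 9 genes in every library, in CPM on a linear axis from 0. Points are libraries (blue siCtrl, red siDDX17), the long bar is the mean and the error bar the SD of 3 libraries. TPM4 moves from about 102 to 413 CPM with no overlap, whereas the points of TPM3 and MYL9 overlap between the groups.

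Tropomyosin isoforms sort to different populations of actin filaments, which gene counts do not resolve. The make-up of tropomyosin RNA by gene was computed per library from the FPKM values of the authors, which are scaled for length. The 4 genes summed to 187, 201 and 206 FPKM in siCtrl and to 423, 417 and 415 FPKM in siDDX17. TPM4 supplied 15% to 16.8% of that sum in siCtrl and 31.7% to 33.4% in siDDX17. TPM3 went the other way, from 31.8% to 32.6% down to 14.7% to 15.7%, although its own FPKM hardly differed (64.0 ± 3.00 and 63.1 ± 2.85). FPKM carry no TMM scaling, and over all tested genes their median log2 fold change was 0.12 (limma on log2(FPKM + 0.1)). In the main fit that median was 0.01. In CPM, TPM3 had 335 ± 19.9 in siCtrl and 302 ± 13.8 in siDDX17. TPM2 held the largest share in all 6 libraries, at 42.3% to 45.7% in siCtrl and 45.1% to 47.5% in siDDX17. TPM1 held 7.31% to 8.26% and then 6.04% to 6.29%, a lower share beside a higher level. In reads, the ratio of TPM4 to TPM3 was 0.325, 0.303 and 0.291 in siCtrl libraries and 1.33, 1.36 and 1.42 in siDDX17 libraries.

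The shares depend on the length given to each gene. The FPKM values of TPM1 correspond to a length of about 7643 bases, while its canonical transcript has 1217, and those of TPM2 to 3416 bases against 1190. Per kilobase of the canonical transcript, a scale chosen after the FPKM lengths were seen, TPM1 held 21.0% to 23.8% of the sum in siCtrl and 16.9% to 17.7% in siDDX17, and TPM4 held 8.75% to 9.83% and 17.9% to 19.1%. The share of TPM4 was higher and that of TPM3 lower in siDDX17 on both scales, with no overlap.

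**Figure D2:**
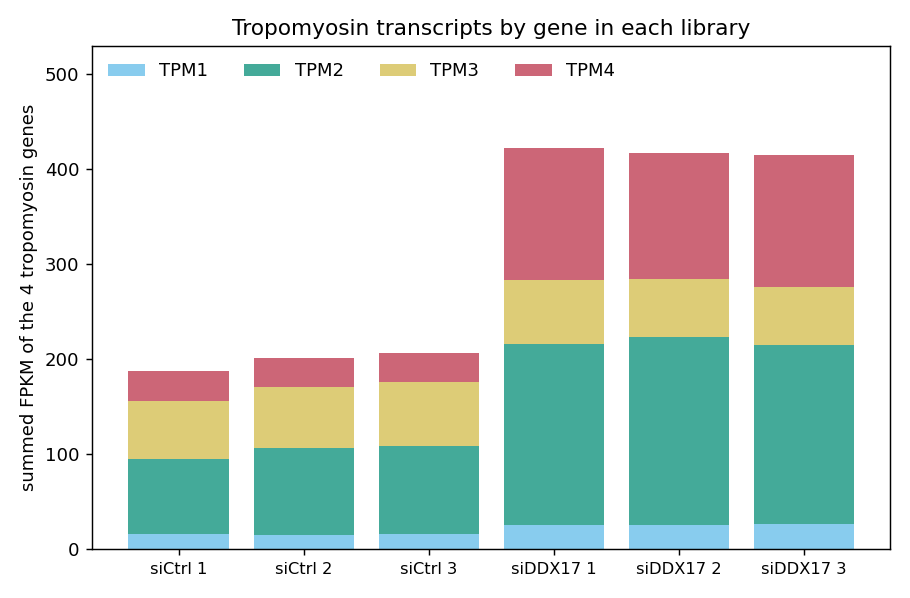
Summed FPKM, without TMM scaling, of the 4 tropomyosin genes in each library, stacked by gene, on a linear axis from 0. The bars reach 187 to 206 in siCtrl and 415 to 423 in siDDX17, and the TPM4 segment (red) grows from 15% to 16.8% of the bar to 31.7% to 33.4%, while the TPM3 segment (yellow) keeps its height.

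FLNA is the first of the cross-linkers. It encodes filamin A, the long hinged dimer that joins filaments into networks and links them to membrane receptors. It was measured at 1028, 1030 and 1066 CPM in siCtrl and at 1197, 1232 and 1162 CPM after knockdown. The groups did not overlap, but the distance was small, a log2 fold change of 0.20 (SE 0.0549) or 1.15-fold. FLNA lies at chrX:154348524-154374634 on the - strand.

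FLNC, the filamin of muscle, was near the detection limit at 0.978 ± 0.390 CPM and 1.57 ± 0.407 CPM and did not pass the test (log2 fold change 0.65, adjusted p = 0.0705, edgeR quasi-likelihood test with Benjamini-Hochberg adjustment over all tested genes, which holds for every adjusted p below).

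ACTN4, alpha-actinin-4, a filament bundler of non-muscle cells, was lower in siDDX17. The siCtrl libraries had 643, 712 and 690 CPM and the siDDX17 libraries 520.0, 536 and 514 CPM. Every siDDX17 library was below every siCtrl library, with a log2 fold change of -0.38 (SE 0.0578), 0.767-fold. ACTN4 lies at chr19:38647649-38731589 on the + strand, where CAPN12 overlaps it by 868 bases on the opposite strand.

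ACTN1, alpha-actinin-1, the paralog found in stress fibres and adhesions, hardly differed. It had 283, 282 and 288 CPM in siCtrl and 272, 270 and 271 CPM in siDDX17. The replicates were so close that the groups did not overlap, yet the log2 fold change was only -0.07 (SE 0.0511) and did not pass the test, and it was above 0, up to 0.06, when no scaling factor was used or when FPKM were fitted. In reads, the ratio of ACTN1 to ACTN4 was 0.441, 0.396 and 0.418 in siCtrl, whereas siDDX17 gave 0.523, 0.505 and 0.528. The muscle paralogs were almost silent, with at most 3 reads of ACTN2 and 1 of ACTN3 in any library. ACTN1 lies at chr14:68874128-68979440 on the - strand.

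CNN2, calponin 2, is the calponin of non-muscle cells and binds along filaments. The siCtrl libraries had 147, 149 and 161 CPM and the siDDX17 libraries 220.4, 222 and 219 CPM. The groups were clearly apart, with a log2 fold change of 0.53 (SE 0.0557), 1.45-fold, that stayed between 0.50 and 0.57 when single libraries were left out. CNN3, its paralog, had 52.3 ± 3.13 CPM and 53.7 ± 3.03 CPM and did not pass the test (log2 fold change 0.04, adjusted p = 0.650). CNN1, the calponin of smooth muscle, had 0 to 2 reads per library. CNN2 lies at chr19:1026586-1039068 on the + strand.

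MYL9, a regulatory light chain of myosin II that is abundant in smooth muscle, was barely expressed. It had 32, 19 and 47 reads in siCtrl and 57, 47 and 47 reads in siDDX17, or 0.945, 0.664 and 1.25 CPM and 1.48, 1.29 and 1.22 CPM. The groups overlapped. The log2 fold change was 0.45 with the largest error of the 9 genes (SE 0.239) and ran from 0.26 to 0.71 with single libraries left out. It did not pass the test, but it did without siCtrl 3 and in limma on log2(FPKM + 1). Far more regulatory light chain RNA came from MYL12A and MYL12B, the near-identical paralogs of non-muscle cells, at 146 ± 4.94 and 124 ± 7.52 FPKM in siCtrl against 0.31 ± 0.10 FPKM for MYL9, and both fell. MYL12A had 226 ± 12.7 CPM and 191 ± 5.85 CPM (log2 fold change -0.24, adjusted p = 0.00392), a call that was lost without a scaling factor and on the FPKM values. MYL12B had 239 ± 19.8 CPM and 188 ± 15.2 CPM (log2 fold change -0.34, adjusted p = 0.00169). How reads were divided between these 2 paralogs is uncertain. MYL9 lies at chr20:36541497-36551447 on the + strand.

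Counted over the group, 5 of the 9 genes passed an adjusted p of 0.05 and were higher in siDDX17 (TPM1, TPM2, TPM4, FLNA and CNN2), 1 passed and was lower (ACTN4), and 3 did not pass (TPM3, ACTN1 and MYL9). Of all 15615 tested genes, 24.5% passed as higher and 24.3% as lower. With the log2 fold change limit of 1 added, 1 of the 9 was higher (TPM4) and 0 were lower, beside 4.65% and 2.92% of all tested genes, and the first count was 2 in 10 of 15 other settings, where TPM2 was over the limit as well. Every siDDX17 library was above every siCtrl library for 5 of the 9 and below for 2, beside 28.8% and 27.7% of all tested genes. The median log2 fold change was 0.45 over the 9 genes and 0.01 over all tested genes. As the group was selected on these values, nothing is read from its counts. Without a scaling factor the split over all genes moved from 3819 higher and 3798 lower to 5230 higher and 2494 lower, and the median of the log2 fold changes shifted up by 0.12. In bulk RNA, fewer cells of a type and less RNA per cell cannot be told apart.

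**Figure D3:**
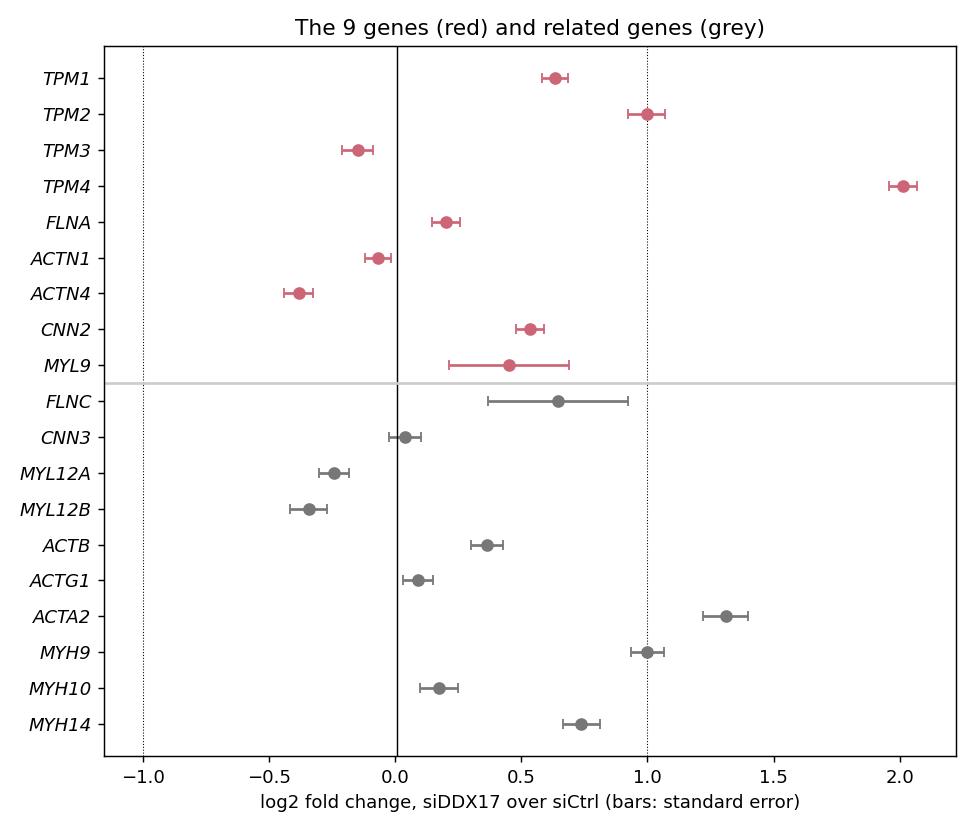
Log2 fold change of siDDX17 over siCtrl for the 9 genes (red) and for related genes (grey), from the edgeR fit on 3 libraries per group; bars are standard errors and dotted lines mark log2 fold changes of -1 and 1. TPM4 stands at 2.01, TPM2 at 1.0 and ACTN4 at -0.38.

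The order of the 9 genes in siCtrl was read from the FPKM of the authors (mean ± SD, n = 3). ACTN4 was first at 126 ± 3.96 FPKM, followed by FLNA at 112 ± 3.44 and TPM2 at 88.1 ± 7.67. TPM3, ACTN1 and CNN2 came next at 64.0 ± 3.00, 62.6 ± 1.71 and 62.2 ± 3.22, with ranges that overlapped from each to the next, so their order is not resolved. TPM4 had 31.0 ± 0.401 FPKM, TPM1 15.1 ± 0.397 and MYL9 0.31 ± 0.10. In siDDX17 TPM2 was first at 192 ± 4.88 FPKM, and TPM4, seventh in siCtrl, had 137 ± 4.30 and overlapped with FLNA at 141 ± 2.47 in second place. ACTN4 followed at 106 ± 1.11 FPKM, CNN2 at 98.5 ± 0.525, ACTN1 and TPM3 with overlapping ranges at 65.2 ± 0.897 and 63.1 ± 2.85, TPM1 at 25.6 ± 0.381 and MYL9 at 0.473 ± 0.0493. Per kilobase of canonical transcript the siCtrl order changed, with TPM2 first at 254 ± 20.9 reads per kilobase and 1000000 counts, without TMM scaling, and TPM1 in place 4 at 95.3 ± 2.88, because both have canonical transcripts far shorter than the lengths behind their FPKM.

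**Figure D4:**
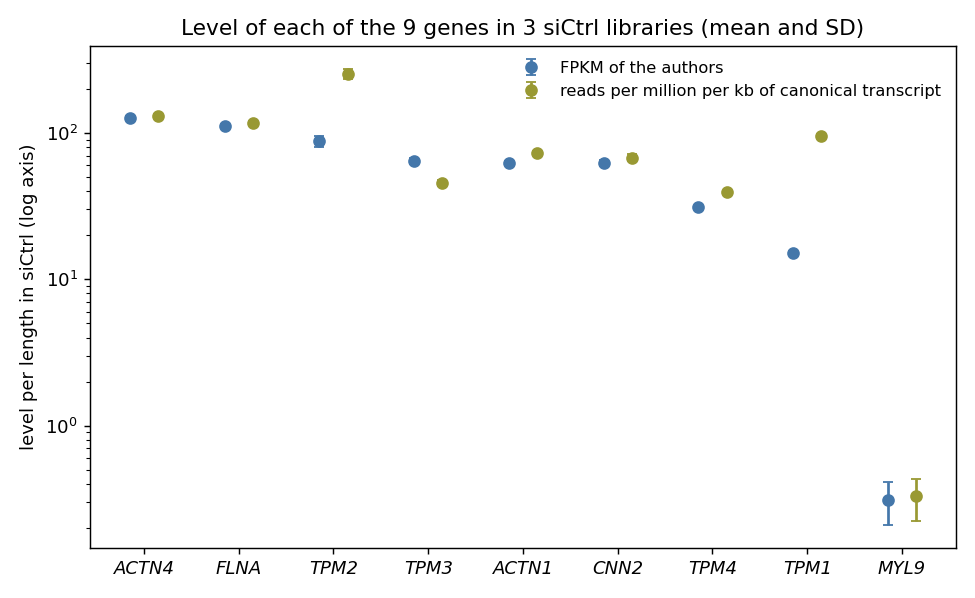
Level per length of the 9 genes in the 3 siCtrl libraries on a log axis, as FPKM of the authors (blue) and as reads per kilobase of the canonical transcript and 1000000 counts (olive), mean with SD. ACTN4 (126 and 131) and FLNA (112 and 117) stand close together on both scales, whereas TPM1 (15.1 and 95.3) and TPM2 (88.1 and 254) do not, and MYL9 is far below the rest on both.

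The rest of the actin filament system was described with a list of 99 further genes in 6 roles, of which 95 were listed and 86 were tested. Of these, 31 rose, 21 fell and 34 did not pass, beside the 24.5% and 24.3% of all tested genes, and their median log2 fold change was 0.06. With the fold limit, 3 rose (ACTA2, VIL1 and SVIL) and 0 fell, beside 4.65% and 2.92% of all tested genes. Over 15 other settings, 2 to 5 rose and 0 to 1 fell. The genes thus went both ways. In those 15 settings of scaling, filter, tool, block and left-out library, none of the calls turned direction, and LASP1, CFL2, CAPZA2, ARPC1A, ACTR3, INF2 and ENAH, as well as MYL12A, lost theirs in at least 1. The stricter call limits of the methods (unadjusted p of 0.01 and fold change of 1.5) kept 17 of the 52 calls. The gene lists were made with earlier results of these data known. Many genes named below were picked because they passed or had large fold changes, so their adjusted p gives no independent support.

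By role, each count below stands beside the 24.5% higher and 24.3% lower of all tested genes, and nothing is read from it. Of the 3 tested actins, 2 rose. ACTB, beta-actin, rose from 4926 ± 239 CPM to 6344 ± 218 CPM (log2 fold change 0.37, SE 0.0628, adjusted p = 0.000332). ACTA2, the actin of smooth muscle and myofibroblasts, rose from 10.6 ± 0.960 CPM to 26.3 ± 2.06 CPM (1.31, SE 0.0900, adjusted p = 1.05e-07). Per length it stayed low, at 14.6 ± 1.07 FPKM in siDDX17 beside 3313 ± 90.9 FPKM for ACTB. ACTG1, gamma-actin, had 6056 ± 109 CPM and 6450 ± 265 CPM and did not pass (0.09, adjusted p = 0.232).

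Myosin II and its regulators had 14 tested genes, with 5 that rose, 3 that fell and 6 that did not pass. MYH9, the heavy chain of non-muscle myosin IIA, rose from 188 ± 16.0 CPM to 375 ± 7.05 CPM (log2 fold change 1.0 after rounding, SE 0.0653, adjusted p = 6.86e-08), just short of the fold limit, which it passed in 8 of 15 other settings. MYH14, the heavy chain of myosin IIC, rose from 13.1 ± 0.587 CPM to 21.9 ± 0.804 CPM (0.74, adjusted p = 3.54e-06). MYLK, the kinase of the regulatory light chain, rose from 7.47 ± 1.15 CPM to 12.5 ± 0.522 CPM (0.73, adjusted p = 9.30e-05). The heavy chain MYH9 and the light chains MYL12A and MYL12B thus went in opposite directions.

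Cross-linkers and partners of alpha-actinin had 17 tested genes, of which 8 rose, 4 fell and 5 did not pass. PDLIM5, a PDZ and LIM domain protein that binds alpha-actinin, fell from 102 ± 1.87 CPM to 67.2 ± 2.39 CPM (log2 fold change -0.60, adjusted p = 1.25e-06). LIMA1, a filament bundler also called EPLIN, rose from 9.24 ± 0.108 CPM to 12.7 ± 0.211 CPM (0.46, adjusted p = 0.000396). VIL1, villin, rose from 1.40 ± 0.381 CPM to 2.88 ± 0.335 CPM (1.03, adjusted p = 0.000839), where leaving out single libraries gave log2 fold changes from 0.84 to 1.28 and where 9 of 15 other settings put it over the fold limit. Partners of tropomyosin and calponin had 7 tested genes, of which 1 rose, 1 fell and 5 did not pass.

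Filament assembly and turnover was the largest role, with 13 of 42 tested genes that rose, 13 that fell and 16 that did not pass. SVIL, supervillin, which binds filaments and myosin at the membrane, rose from 17.7 ± 0.929 CPM to 55.5 ± 1.96 CPM (log2 fold change 1.65, SE 0.0666, adjusted p = 1.20e-09). EVL, a member of the Ena/VASP family, rose from 16.9 ± 1.51 CPM to 32.6 ± 0.981 CPM (0.95, adjusted p = 4.74e-07). LIMK1, the kinase that inactivates cofilin, rose from 47.7 ± 2.33 CPM to 81.1 ± 3.97 CPM (0.77, adjusted p = 3.95e-07).

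SRF itself had 44 ± 2.48 CPM and 43.8 ± 2.68 CPM and did not pass (log2 fold change -0.01, adjusted p = 0.955). Its coactivator MRTFA rose from 34.4 ± 1.71 CPM to 49.1 ± 3.24 CPM (0.51, adjusted p = 3.70e-05), and MRTFB rose from 14.5 ± 1.74 CPM to 19.1 ± 0.820 CPM (0.40, adjusted p = 0.00270). These are RNA levels, and the position of the coactivators in the cell was not measured.

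**Figure D5:**
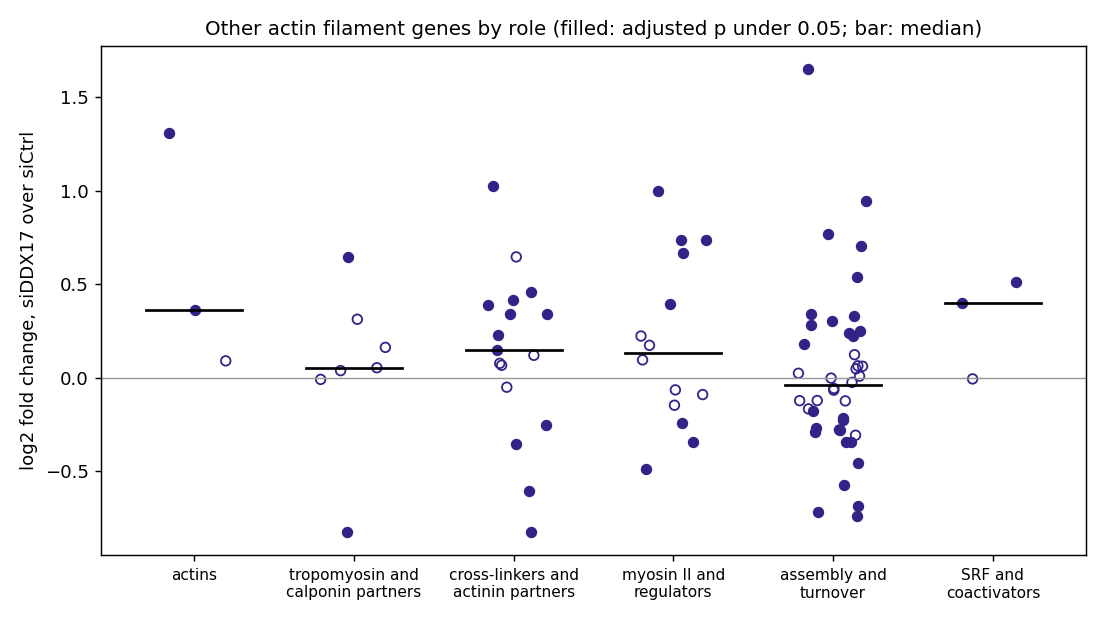
Log2 fold change of siDDX17 over siCtrl for the 86 tested actin filament genes outside the group of 9, by role. Filled points passed an adjusted p of 0.05, open points did not, and bars are medians; the points lie on both sides of 0 in the roles with more than 3 genes, and SVIL, at 1.65, is the highest.

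The genes whose profile was most like that of TPM4 were sought among 8974 tested genes that averaged 3 log2 CPM or more, by the Euclidean distance over 6 libraries between log2 CPM values set relative to the siCtrl mean of each gene. The nearest was MICAL2, an enzyme that oxidizes actin, at a distance of 0.148, with 18.8, 18.4 and 18.4 CPM in siCtrl and 73.0, 70.1 and 69.7 CPM in siDDX17. ELFN2 followed at 0.180, then COL4A1, a collagen of basement membranes, at 0.203, CCDC80, a secreted matrix protein, at 0.240, and MMP24, a membrane-bound metalloproteinase, at 0.253. Their log2 fold changes ran from 1.89 to 2.03, beside 2.01 for TPM4. They were chosen for this likeness, so no test is given.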

How the data were processed

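The authors sequenced stranded libraries of polyadenylated RNA from A549 cells, removed adaptors and poor bases, aligned with TopHat2 to GRCh38 and kept reads with a unique position. They deposited the raw count of reads per gene in 6 libraries and, in a second table, FPKM values that they had scaled for gene length and library size. The counting program, its use of strand and the annotation release are not given in the sources used here, so counts of overlapping and near-identical genes are uncertain. Keeping unique reads lowers the counts of genes that share sequence with pseudogenes. A processing tool list in the submitters' notes names bcl2fastq, TopHat2 and edgeR.

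All 6 libraries were fitted with edgeR 4.0.16 (R 4.3.3) with group as the only term (TMM scaling, filterByExpr, quasi-likelihood test, Benjamini-Hochberg adjustment over 15615 genes), and a gene passed at an adjusted p of 0.05. The fold limit adds an absolute log2 fold change over 1. CPM are counts per 1000000 of the TMM-scaled library size, the SE of a log2 fold change is its size divided by the root of the quasi-likelihood F, and the spread is the SD of 3 libraries. The fit was tested on simulated counts with 200 changed genes, equally many up and down. In the real libraries far more genes passed (3819 higher and 3798 lower), so the simulation cannot check the choice of scaling. The methods call the replicates biological, and the labels do not say whether they came from separate cultures, so the p-values measure the spread between these libraries. The precision is set by 30658136 to 39182371 counts per library, and intervals cover counting and replicate error only. MRTFA and MRTFB were matched under their older symbols.

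The 9 genes and all gene lists were chosen with earlier results of these data known. Named beside the 9 were DDX17, their paralogs, ACTB, ACTG1, SRF, MRTFA, MRTFB, every other actin filament gene past the fold limit, up to 3 passing genes per role with the largest absolute log2 fold change and 3 log2 CPM or more on average, and the 5 genes nearest to TPM4. The alternatives were DESeq2 1.42.0, RLE, upper quartile and no scaling, no filter, at least 10 counts in every library, limma 3.58.1 on log2(FPKM + 1) and log2(FPKM + 0.1), the replicate block, the call limits of the methods (p of 0.01 and fold change of 1.5), other gene lengths, and each library left out. Protein sequences were not used here. A gene covered by the naming rule is not reported here.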

Additional observations from a re-analysis of the deposited data

How the results depend on the processing

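Under the call limits of the methods (unadjusted p of 0.01 and fold change of 1.5), 1713 genes were higher and 1254 lower in siDDX17, in place of 3819 and 3798, with 3 of the 9 genes higher and 0 lower, and 11 of the other actin filament genes higher and 6 lower. These counts come from the fit used here. The paper reported fewer genes in each direction under the same stated limits. The number of lower genes was 2494 without a scaling factor, 2374 by limma on log2(FPKM + 0.1) and 2369 on log2(FPKM + 1). The count of lower genes among the 9 was 2 in place of 1 by DESeq2, without the low-count filter and without siCtrl replicate 1, since TPM3 then passed as well. MYL9 passed as higher in limma on log2(FPKM + 1) and without siCtrl replicate 3. Leaving out single libraries gave 3189 to 4220 higher and 3101 to 4312 lower genes, 5 to 6 higher and 1 to 2 lower among the 9, and 28 to 34 higher and 19 to 25 lower among the other actin filament genes. ACTN1, which passed in none of these settings, was above 0 in 3 of 15. The cause of these shifts was not tested.

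The levels per length in siCtrl depended on the length given to each gene. Per kilobase of all annotated exons and 1000000 counts, reads were 107 for ACTN4, 91.8 for FLNA, 21.2 for TPM3, 19.0 for ACTN1, 40.1 for CNN2, 7.92 for TPM4 and 7.89 for TPM1. On the same scale TPM2 had 94.8 and MYL9 0.326, each within 1 SD of its FPKM. Per kilobase of the canonical transcript, a scale added after the data were seen, reads were 131 for ACTN4, 117 for FLNA, 254 for TPM2, 45.4 for TPM3, 73.3 for ACTN1, 67.9 for CNN2, 39.6 for TPM4 and 95.3 for TPM1. MYL9 had 0.329 on that scale.

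Same-numbered libraries of the groups did not deviate together (correlations of deviations over genes of 0.00698, 0.0407 and -0.0564), so the numbers were not taken as pairs. With the replicate block, 3743 genes were higher and 3738 lower, 5 and 1 among the 9 genes, and 31 and 21 among the other actin filament genes. MYL9 had the fewest reads of the 9 genes, at 19 to 57 per library.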

Other observations

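Other genes of filament turnover, here and in the next paragraph, were chosen after their values were seen, and they moved both ways. The Arp2/3 complex, which starts branched filaments, has alternative forms of its ARPC1 subunit. ARPC1A rose from 223 ± 11.9 CPM to 253 ± 0.993 CPM (log2 fold change 0.18, edgeR adjusted p = 0.0158), a call lost in some settings, and ARPC1B fell from 274 ± 18.2 CPM to 170 ± 6.60 CPM (-0.68, edgeR adjusted p = 1.31e-06). ARPC2 fell (-0.45, edgeR adjusted p = 6.23e-05), as did ACTR3 (-0.21, edgeR adjusted p = 0.00903, also lost in some settings), while ARPC3, ARPC4, ARPC5 and ACTR2 did not pass.

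Among proteins that bind actin monomers, PFN1, profilin 1, fell from 3415 ± 161 CPM to 2046 ± 83.5 CPM (-0.74, edgeR adjusted p = 5.80e-07), and PFN2 had 198 ± 1.41 CPM and 190 ± 3.12 CPM and did not pass. The monomer-sequestering thymosins TMSB4X and TMSB10 rose by 0.33 and 0.34 on the log2 scale (edgeR adjusted p = 0.00199 and 0.00288). TMSB4X had 1177, 1302 and 1457 CPM in siCtrl and 1653, 1632 and 1662 CPM in siDDX17. TMSB10 had 2651, 3350 and 3224 CPM in siCtrl, with siCtrl 1 the lowest, and 3863, 3975 and 3870.0 CPM in siDDX17. Among the slingshot phosphatases, which act on cofilin against LIMK1, SSH3 rose from 14.2 ± 0.152 CPM to 23.1 ± 0.484 CPM (0.70, edgeR adjusted p = 2.95e-06), SSH2 rose by 0.30 (edgeR adjusted p = 0.00203) and SSH1 did not pass the test.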
